A study of Rattus norvegicus with 8 samples.

Results

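Rat liver at 2 weeks of age was compared with rat liver at 4 weeks, ages that lie on either side of weaning. Of the 8 arrays of the series, the 2 titled as liver of 2-week-old rats and the 2 titled as liver of 4-week-old rats were taken, and they were described across 14511 genes, each read from the probe set of its symbol with the highest mean level. Each array, an Affymetrix Rat Gene 1.0 ST, carries many short probes along every transcript and gives 1 log2 level per probe set. All animals were healthy female Wistar rats, an outbred laboratory strain, kept under a 12 h photoperiod. The other 4 arrays, 2 of liver at 12 weeks and 2 of the liver that remained 8 h after surgical removal of 2/3 of the organ, entered the fit to estimate the spread, and the 12-week levels are set beside the younger ones. Whole pieces of liver were used, so a lower level can mean fewer cells of a type or less RNA per cell, and the 2 cannot be told apart here. What the animals ate, whether they were fasted, at what hour they were killed and whether each array is 1 animal are unknown here. Arrays of a group are titled as biological replicates but described as duplicates in the design, so the p-values cover only the spread between these arrays, which may be technical.

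As background, a suckling rat lives on milk, which is rich in fat and poor in carbohydrate, and its liver burns fatty acids, makes ketone bodies and glucose and represses the synthesis of fat. At weaning the diet turns to solid food rich in starch, and the liver of a weaned rat makes fatty acids from glucose under the control of insulin, thyroid hormone and the transcription factors SREBP-1c and ChREBP. Over the same weeks the rodent liver silences its fetal genes, slows its growth, stops making blood cells and takes on the adult set of enzymes for bile acids, steroids and foreign compounds, many of which follow growth hormone and differ between the sexes.

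The label of liver was checked first: albumin (Alb) stood at 14.19 and 14.14 on the 2-week arrays and at 14.19 and 14.18 on the 4-week arrays. The highest levels of any probe set were 14.23 and 14.14 at 2 weeks and 14.19 and 14.18 at 4 weeks. Alb thus lay at or near the top of each array, where a change could go unseen. None of 11 hepatocyte markers passed the test. Array medians ran from 5.98 to 6.17 over all 8 arrays, and the correlation between the 2 arrays of a group across genes was 0.977 at 2 weeks and 0.975 at 4 weeks. The 12-week arrays were less alike, with a correlation of 0.952 and 1838 genes at least 2-fold apart, against 480 at 2 weeks and 621 at 4 weeks; without them 110 genes were called in place of 66. The level that 95% of 1281 odorant, vomeronasal, trace amine and taste receptor genes did not exceed was 5.38 at 2 weeks and 5.48 at 4 weeks. It served as the background level, under which a gene cannot be told from no expression. The 2 arrays of 2 weeks differed in some gene groups. Neutrophilic granule protein (Ngp, singled out after its values were seen) stood at 11.28 and 6.55 on the first and second array. Muscle actin (Acta1) showed the reverse, at 6.89 and 10.74. Osteopontin (Spp1) stood apart at 4 weeks, at 11.77 and 5.83. None of these 3 genes was called, and their part in other results was not tested.

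Of 14511 genes, 66 (0.455%) differed between 4 and 2 weeks at an adjusted p under 0.05 (limma, Benjamini-Hochberg over all genes), with 44 (0.303%) higher and 22 (0.152%) lower at 4 weeks. Every one of the 66 differed by at least 2-fold, and 32 of the higher and 16 of the lower genes by at least 4-fold. In order of size, the 10 largest rises were those of Thrsp and Scd (fat synthesis), Cyp7a1 (bile acid synthesis), Mettl7b, Slc41a2, Lcn2, Ugt2a3, Glyat, Cyp2c12 and Cyp2c11. Those that fell most were alpha-fetoprotein (Afp), the fetal growth factor Igf2 and its binding protein Igfbp2. Over all genes the median difference was 0.002 on the log2 scale, with 7291 genes above and 7220 below 0. At an unadjusted p under 0.05 there were 1050 genes, 500 higher and 550 lower, where 725.6 would pass by chance. With 2 arrays a group, a single array weighs heavily: 46 genes were called when the first 2-week array was left out and 33 when the second was, and 30 and 26 when the first or the second 4-week array was. Of the 66 genes, 18 were called under each of these 4 omissions and in every alternative fit that tested them (up to 19 a gene), and 28 were called under none of the 4 omissions. The 18 were Thrsp, Cyp7a1, Slc41a2, Ugt2a3, Glyat, Cyp2c12, Cyp2c11, Wfdc21, Slco1a4, Ces2a and Ces1f among the higher genes and Afp, Igf2, Igfbp2, Qpct, Lpl, Abcd2 and Gfra1 among the lower.

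**Figure D1:**
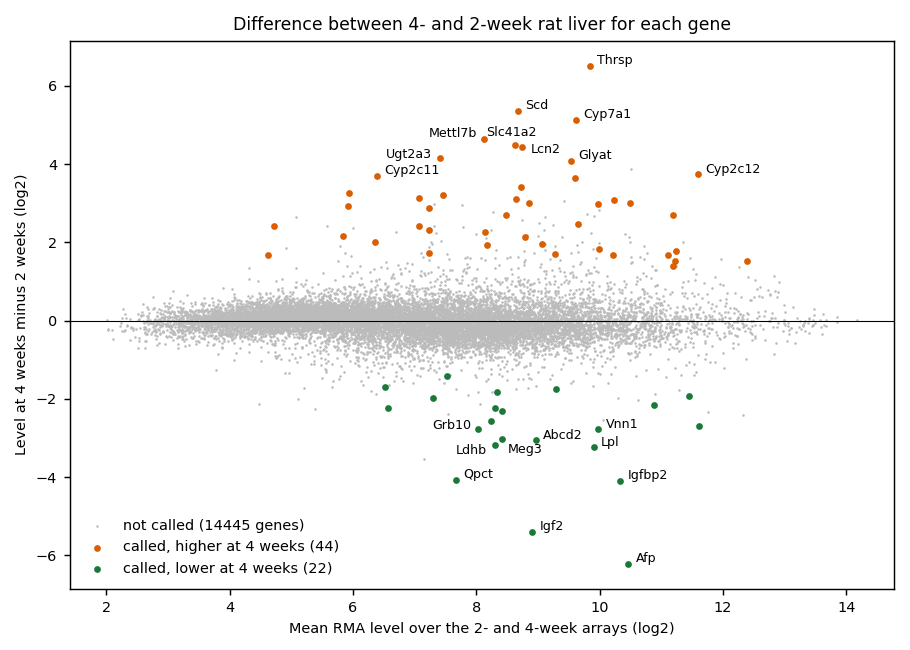
Log2 level at 4 weeks minus 2 weeks (vertical axis) against the mean log2 level over the 4 arrays (horizontal axis) for 14511 genes. Grey points were not called, orange points (44) were called higher and green points (22) lower at 4 weeks, and the 10 genes with the largest differences in each direction are named, from Thrsp at 6.52 to Afp at -6.21.

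The fetal programme of the liver gave the deepest falls. Afp, the albumin-like plasma protein of the fetus, stood at 13.70 and 13.44 on the 2-week arrays and at 7.60 and 7.13 on the 4-week arrays. It fell by 6.21 ± 0.33 on the log2 scale (SE, adjusted p = 0.000672), which is 73.8-fold, and its 12-week levels were 6.52 and 7.46. All 4-week arrays of Afp lay far below all 2-week arrays, and the 12-week arrays lay at about the 4-week level. Among 17 fetal liver genes, 2 fell (Afp and Igf2), against 0.152% of all genes called lower, none rose, and 12 had a difference below 0. The median was -0.26 against 0.002 for all genes, and -0.51 without the second 2-week array. Not all of the list was lower: Hmga2 and Trim71, fetal regulators of proliferation, differed by 0.24 and 0.23 and were not called. The heparan sulphate proteoglycan Gpc3 differed by -1.42 ± 0.24 (adjusted p = 0.0563), just outside the threshold, and its arrays did not overlap. These 3 genes were picked after their values were seen.

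The stretch upstream of Afp is shown because Afp had the largest fall of all genes. It is the 250 bases before the gene's start in the RefSeq annotation of GRCr8, chr14:17875646-17875895 on the minus strand, 5′ to 3′. Capitals mark a TATA box (TATAAA, first base 37 before the start) and GTTAAT, part of the site of hepatocyte nuclear factor 1 (first base 135 before the start).
Afp: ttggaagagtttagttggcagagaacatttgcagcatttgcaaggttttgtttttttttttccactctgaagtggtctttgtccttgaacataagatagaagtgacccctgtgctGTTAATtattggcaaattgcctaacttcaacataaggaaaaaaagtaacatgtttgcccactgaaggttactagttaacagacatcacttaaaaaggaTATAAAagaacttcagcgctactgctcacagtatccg
These motifs, both chosen after the values were seen and searched on both strands, were held by 14.2% (TATAAA) and 7.45% (GTTAAT) of all 33469 promoters in the table, each spanning 250 bases before to 50 after a start. Of the 19 promoters of called lower genes, 3 held TATAAA and 2 held GTTAAT.

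Imprinted genes are read from only the maternal or the paternal copy, and many of them set fetal growth. Of 20 measured, 3 fell, against 0.152% of all genes, and none rose. All 20 had a difference below 0 on the deposited scale (19 with the arrays shifted to a common 75th percentile), with a median of -0.36. Both 4-week arrays lay below both 2-week arrays in 12 of the 20, against 20.1% of all genes. Igf2, the paternally expressed growth factor of the fetus, stood at 12.27 and 10.92 at 2 weeks and 6.20 and 6.22 at 4 weeks and fell by 5.39 ± 0.39 (adjusted p = 0.00144). Meg3, a maternally expressed long noncoding RNA, fell by 3.02 ± 0.40, from 10.52 and 9.33 to 7.13 and 6.69. Grb10, an adaptor that restrains insulin and growth factor receptors, fell by 2.76 ± 0.41, from 10.12 and 8.71 to 6.83 and 6.48. For Igf2, Meg3 and Grb10 the first 2-week array was the higher one by over 1 log2 unit, yet the groups did not overlap. H19, the noncoding RNA next to Igf2, lay at the edge of the test. Its probe set with the highest level stood at 13.75 and 13.30 at 2 weeks, 11.80 and 10.45 at 4 weeks and 7.23 and 7.21 at 12 weeks. Its difference between 4 and 2 weeks was -2.40 ± 0.41 and was not called (adjusted p = 0.0616), and the 3 ages did not overlap. A second H19 probe set differed by -1.67 ± 0.24 and passed the threshold when every probe set was tested on its own (adjusted p = 0.0301), and so did the mean of both probe sets. Meg3 and Grb10 were called without the second 2-week array and lost the call without any of the other 3. The 20 genes averaged 8.54 and 8.11 at 2 weeks, 7.41 and 7.22 at 4 weeks and 6.77 and 6.83 at 12 weeks.

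The growth hormone and insulin-like growth factor axis held 24 measured genes, of which 2 fell, against 0.152% of all genes, and none rose. The list's median was -0.05 (0.02 with the arrays shifted to a common 75th percentile). Beside Igf2, the faller was Igfbp2, a carrier of these growth factors that is abundant before birth. It stood at 12.26 and 12.50 at 2 weeks and 7.68 and 8.88 at 4 weeks and fell by 4.10 ± 0.39 (adjusted p = 0.00406). Igf1, the growth hormone-dependent growth factor of later life, stood at 12.42 and 11.88 and then 12.93 and 12.97, a difference of 0.80 ± 0.26 that was not called. The growth hormone receptor (Ghr) differed by 0.74 ± 0.32, also not called, with the second 2-week array at 9.64 the lowest of its 4.

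**Figure D2:**
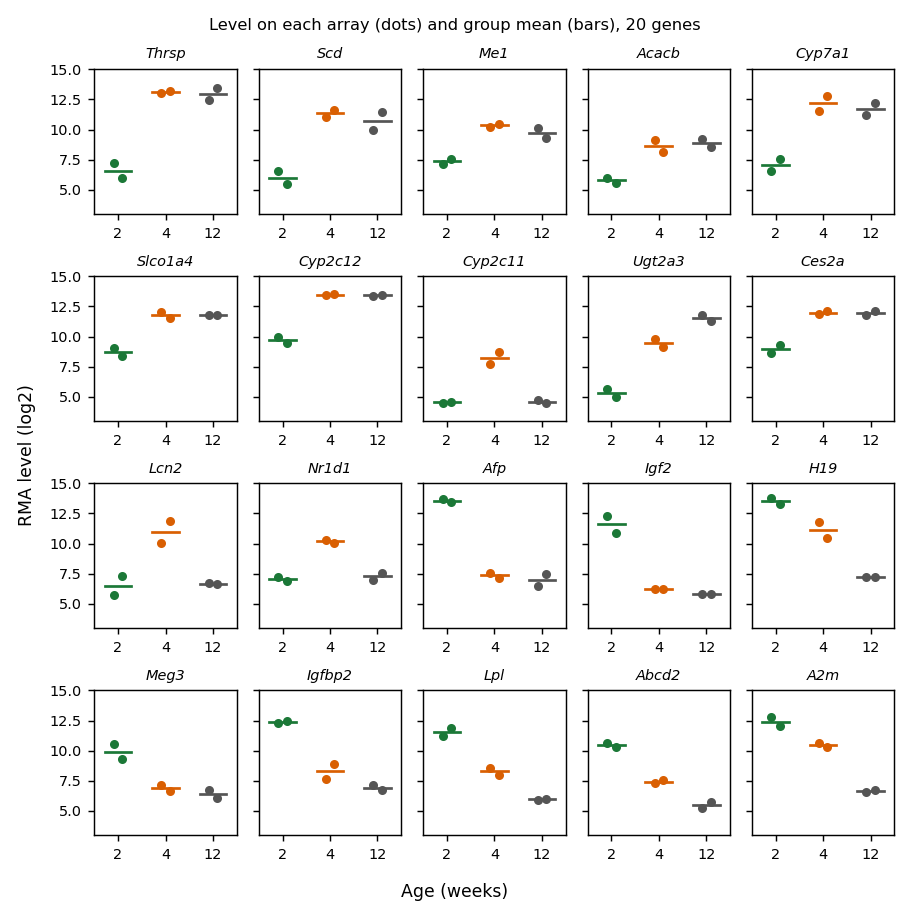
Log2 level of 20 genes on each array (dots) with the group mean (bars) at 2, 4 and 12 weeks, 2 arrays each; all panels share a vertical axis from 3 to 15. In the 12 genes from Thrsp to Nr1d1 both 4-week dots lie above both 2-week dots, and in the 8 from Afp to A2m they lie below; Cyp2c11, Lcn2 and Nr1d1 are at about their 2-week level again at 12 weeks.

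Genes of fat synthesis lay above 0 almost throughout. Of 19 lipogenesis genes, 4 rose, against 0.303% of all genes, none fell, 18 had a difference above 0, and the median was 1.58. In 14 of them both 4-week arrays lay above both 2-week arrays, against 20.1% of all genes. Thrsp, a nuclear protein that responds to thyroid hormone and carbohydrate and promotes fat synthesis, stood at 7.20 and 5.97 at 2 weeks and 13.03 and 13.18 at 4 weeks. It rose by 6.52 ± 0.44 (adjusted p = 0.00117), the largest increase of all genes. Scd, the desaturase that makes oleate from stearate, rose by 5.36 ± 0.51, from 6.55 and 5.44 to 11.07 and 11.62. Me1, malic enzyme, which supplies NADPH to fatty acid synthesis, rose by 3.00 ± 0.35, from 7.16 and 7.57 to 10.24 and 10.48. Acacb, the acetyl-CoA carboxylase whose product restrains entry of fatty acids into mitochondria, rose by 2.87 ± 0.37, from 5.99 and 5.59 to 9.16 and 8.15. In each of these 4 genes both 4-week arrays lay above both 2-week arrays, and the 12-week levels lay near those of 4 weeks.

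The other 15 lipogenesis genes were not called. Fatty acid synthase (Fasn) stood at 8.99 and 6.90 at 2 weeks and 10.27 and 10.25 at 4 weeks, a difference of 2.32 ± 0.64 (adjusted p = 0.312). ATP citrate lyase (Acly, named after its values were seen), which makes cytosolic acetyl-CoA, stood at 9.43 and 8.03 and then 11.23 and 10.74. In both genes the second 2-week array was the lower one by over 1 log2 unit, and both 4-week arrays were above it and above the first. Leaving out either array of either age left 2 of the 4 calls in this list, Thrsp in every case. The median was 2.13 without the first 2-week array and 1.05 without the second. Me1 was called under none of the 4 omissions, Acacb only without the second 4-week array, and Scd lost the call only without the second 4-week array (adjusted p = 0.0521).

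Cholesterol synthesis and uptake gave a set of 19 genes, none called, all 19 with a difference above 0 and a median of 1.31. The size of the list's difference depends on the second 2-week array. The 19 genes averaged 10.15 and 8.59 at 2 weeks, against 10.69 and 10.82 at 4 weeks. The median was 2.09 without the first 2-week array, with 4 genes called, and 0.56 without the second, with none. Tm7sf2, a sterol reductase, had the lowest p of the list: it stood at 9.81 and 8.80 at 2 weeks and 11.35 and 11.67 at 4 weeks (adjusted p = 0.0798). Dhcr7, the last enzyme of cholesterol synthesis, stood at 9.53 and 7.63 and then 11.64 and 11.15 (adjusted p = 0.0914). Insig1, which holds back SREBP processing when sterols are plentiful, stood at 11.23 and 10.68 and then 12.02 and 12.27. Idi1, an isoprenoid isomerase singled out after its values were seen, shows the split: 10.54 and 6.33 at 2 weeks against 10.72 and 11.59 at 4 weeks. For Idi1 the first 2-week array lay with the 4-week arrays and only the second was low.

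Genes of fatty acid oxidation lay mostly below 0. Of 28 genes, 1 fell, against 0.152% of all genes, none rose, 26 had a difference below 0, and the median was -0.66. Both 4-week arrays lay below both 2-week arrays in 20 of the 28, against 20.1% of all genes, and 12 passed an unadjusted p under 0.05, as did 1050 of the 14511 genes. Abcd2, a peroxisomal carrier of very long-chain fatty acids, stood at 10.67 and 10.31 at 2 weeks and 7.33 and 7.53 at 4 weeks. It fell by 3.06 ± 0.27 (adjusted p = 0.00326) and stood at 5.21 and 5.73 at 12 weeks. Cpt1a, the gate of mitochondrial fatty acid entry, stood at 11.27 and 12.39 and then 11.02 and 10.23, a difference of -1.21 ± 0.41 that was not called (adjusted p = 0.488). Its arrays did not overlap, with the second 2-week array the highest. The list's median stayed between -0.59 and -0.53 when any 1 array was left out, and Abcd2 stayed called each time. Ketogenesis had 6 measured genes, none called, 5 below 0, and a median of -0.74, which was -1.13 without the first 2-week array. The thiolase Acat1 stood at 11.98 and 11.59 at 2 weeks and 10.26 and 10.44 at 4 weeks (adjusted p = 0.203). Ppara, the nuclear receptor that drives both pathways, stood at 10.89 and 10.80 and then 10.28 and 9.03, and Fgf21, a hormone under its control, at 7.84 and 8.85 and then 7.53 and 7.55; neither was called.

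**Figure D3:**
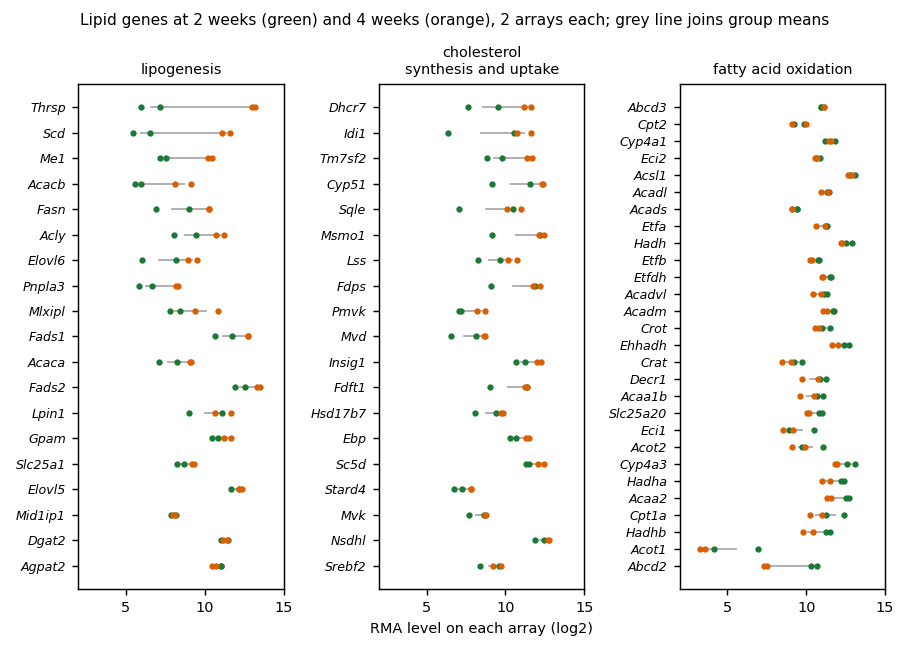
Log2 level on each 2-week array (green) and 4-week array (orange) for the measured genes of lipogenesis (19), cholesterol synthesis and uptake (19) and fatty acid oxidation (28), each gene on a row ordered by its difference, with a grey line between the group means. Lipogenesis genes lie to the right at 4 weeks, cholesterol genes show a wide gap between the 2-week arrays, and most oxidation genes lie to the left at 4 weeks.

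The lipoprotein and lipase list (27 genes) held 1 gene that rose and 1 that fell, against 0.303% and 0.152% of all genes. The list's median was -0.21. Lpl, lipoprotein lipase, stood at 11.20 and 11.84 at 2 weeks, 8.56 and 7.99 at 4 weeks and 5.90 and 6.02 at 12 weeks. It fell by 3.24 ± 0.31 (adjusted p = 0.00406), and the 3 ages did not overlap. Apoa2, an apolipoprotein of high-density lipoprotein, rose by 1.78 ± 0.24, from 10.30 and 10.38 to 12.01 and 12.23; it was called under none of the 4 omissions of 1 array. Apoa1, its larger partner, differed by -0.35 ± 0.28 and was not called. Outside the lists, Vnn1, a pantetheinase that responds to fatty acids, fell by 2.78 ± 0.41, from 10.93 and 11.80 to 8.33 and 8.85, and lost the call when any 1 array was left out. Levels of 16 adipocyte and muscle markers had a median difference of -0.10 and none was called, but they averaged 5.93 and 6.70 at 2 weeks and 6.08 and 5.89 at 4 weeks, with the second 2-week array the highest. The part of such tissue in the Lpl result was not tested; Lpl was called with a difference of -2.92 without the second 2-week array.

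In bile acid synthesis, 1 of 19 genes rose, against 0.303% of all genes, and none fell, with a median of 0.11. The riser was Cyp7a1, the rate-limiting enzyme of the pathway, at 6.58 and 7.53 at 2 weeks and 11.56 and 12.82 at 4 weeks. It rose by 5.14 ± 0.52 (adjusted p = 0.00512), was called in each of 19 settings and stood at 11.21 and 12.20 at 12 weeks. Among 19 hepatocyte transporters 1 rose, against 0.303% of all genes. This was Slco1a4, an organic anion carrier of the sinusoidal membrane, which rose by 3.09 ± 0.28, from 9.02 and 8.37 to 12.01 and 11.55. The sterol export pair Abcg5 and Abcg8, named after their values were seen, differed by 2.01 ± 0.76 and 2.21 ± 0.73 and were not called. Their 4-week arrays lay above both 2-week arrays, at 10.55 and 10.90 and at 9.07 and 9.12. Slc22a8, an organic anion transporter picked the same way, stood at 11.10 and 10.34 at 2 weeks, 9.08 and 9.05 at 4 weeks and 6.25 and 5.47 at 12 weeks and was not called between 2 and 4 weeks (adjusted p = 0.115).

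Enzymes that clear steroids and foreign compounds made up many of the called genes. Of 30 cytochrome P450 genes of drug metabolism, 7 rose and none fell, against 0.303% of all genes called higher, while the median was 0.14. The 7 were Cyp2c12, Cyp2c11, Cyp3a18, Cyp2c13, Cyp2j3, Cyp2b3 and Cyp2d3, with differences from 1.68 to 3.74. With 1 array left out, between 2 and 4 of the list's members were called, Cyp2c12 and Cyp2c11 each time; Cyp3a18 and Cyp2j3 kept the call only without the first 2-week array, and the other 3 under no omission. Outside that list the family also held Cyp17a1, the steroid hydroxylase that the young rat liver expresses, which fell by 2.69 ± 0.31, from 12.89 and 13.03 to 10.72 and 9.81, with 8.26 and 8.41 at 12 weeks, and kept the call only without the first 4-week array. Counted by symbol, a grouping made after the values were seen, 69 P450 genes held 8 higher calls, Cyp7a1 among them, and 1 lower call. These genes are near-identical in parts, so probe sets of 1 subfamily may share signal and the values of single members are uncertain.

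Among 27 conjugation enzymes 3 rose, against 0.303% of all genes, none fell, 23 were above 0, and the median was 0.68. In 22 of the 27 both 4-week arrays lay above both 2-week arrays, against 20.1% of all genes. Ugt2a3, a glucuronosyltransferase, rose by 4.15 ± 0.34, from 5.67 and 4.98 to 9.83 and 9.13; its mean at 2 weeks was under the background level, so the size of its change is less certain than its direction. Gstm2, a glutathione transferase, rose by 3.64 ± 0.54, from 8.60 and 6.96 to 11.41 and 11.42, with the second 2-week array far below the first. It was called without the first 2-week array alone among the omissions, with a difference of 4.46. Sult1e1, the oestrogen sulphotransferase, was called and stood at 3.78 and 3.78 and then 5.15 and 5.78; its mean was under the background level at both ages, so it cannot be told from no expression at either age. Glyat, which joins glycine to acids such as benzoate, lay outside the list and rose by 4.08 ± 0.33, from 7.13 and 7.85 to 11.24 and 11.90. Akr7a3, an aldehyde reductase that acts on aflatoxin, rose by 3.22 ± 0.39 and lost the call without the second array of either age.

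Carboxylesterases, which cleave esters of drugs and lipids, stood out when the called genes were read, and the family was counted after that. Of 10 measured members 5 rose, where 0.303% of all genes did; the family was picked for these calls, so nothing is read from the count. None fell, and all 10 had a difference above 0, with a median of 1.82 and a range from 0.01 to 3.01. Ces2a stood at 8.67 and 9.29 at 2 weeks and 11.88 and 12.09 at 4 weeks and rose by 3.01 ± 0.27. Ces1f rose by 2.47 ± 0.22, from 8.46 and 8.35 to 11.02 and 10.73. Ces1d rose by 2.70 ± 0.26, Ces2g by 1.94 ± 0.23 and Ces1c by 1.69 ± 0.23. In each of these 5 genes the 4-week arrays lay above both 2-week arrays and close to the 12-week levels, which were 11.81 and 12.09 for Ces2a. Ces2a and Ces1f stayed called without any 1 array, Ces1d lost the call only without the second 4-week array, and Ces1c and Ces2g lost it each time. The members are close copies and may share signal. Ces2g was the only called gene with a further probe set, which differed by 2.05 and was not called.

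Of 16 genes known to differ between male and female rat liver, 5 rose, against 0.303% of all genes, none fell, 13 were above 0, and the median was 1.20. With 1 array left out, 2 to 4 were called. The 5 (Cyp2c12, Cyp2c11, Cyp2c13, Cyp3a18 and Sult1e1) all encode enzymes of steroid and drug metabolism and overlap with the lists above; Sult1e1 was under the background level at both ages. Cyp2c12, the P450 of the adult female liver, stood at 9.95 and 9.50 at 2 weeks and 13.42 and 13.51 at 4 weeks. It rose by 3.74 ± 0.23 (adjusted p = 0.000851) and stood at 13.40 and 13.47 at 12 weeks. Cyp2c11, the main P450 of the adult male liver, stood at 4.49 and 4.57 at 2 weeks, which is under the background level, and at 7.76 and 8.71 at 4 weeks. It rose by 3.70 ± 0.32 (adjusted p = 0.00322), and at 12 weeks it stood as low as at 2 weeks, at 4.73 and 4.49. Cyp2c13, another male-biased P450, rose by 2.43 ± 0.28, from 3.63 and 3.36, under the background level, to 5.75 and 6.10, and stood at 5.22 and 5.69 at 12 weeks. The 2-week values of Cyp2c11 and Cyp2c13 cannot be told from no expression, so the sizes of their rises are uncertain. Cyp3a18, also male-biased, rose by 2.99 ± 0.40, from 8.99 and 7.95 to 11.42 and 11.51. So female- and male-biased genes rose side by side on arrays labelled female. The Y-linked gene Sry, the only measured gene of a list of 8 markers of sex and a weak check of sex in liver, was under the background level on all 4 arrays, at 4.30 and 4.48 at 2 weeks and 4.60 and 4.58 at 4 weeks.

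Other sex-biased genes were not called between 2 and 4 weeks. For 3 of them, picked after their values were seen, the 12-week levels lay far away. Cyp3a2, which young rats of both sexes express and adult females lose, stood at 13.06 and 12.79, 12.36 and 12.51 and 6.80 and 6.22 at 2, 4 and 12 weeks. Cyp3a9, which adult females express, stood at 4.40 and 5.32, 4.17 and 5.35 and 10.12 and 10.95. A1bg, a plasma protein of the female rat liver, stood at 5.40 and 5.54, 6.29 and 6.27 and 11.85 and 12.66. For each of these 3 genes the 2- and 4-week means lay within 1 log2 unit of each other, and Cyp3a9 was under the background level at both ages. Prlr, the prolactin receptor, was also picked after its values were seen. It stood at 8.13 and 7.33 at 2 weeks, 9.32 and 9.42 at 4 weeks and 10.20 and 9.86 at 12 weeks and was not called (adjusted p = 0.0786).

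Lists of sugar metabolism held no call. None of 22 genes of glycolysis and of glucose or fructose entry was called, and their median was 0.14. Pklr, the liver pyruvate kinase, stood at 9.54 and 8.19 at 2 weeks and 10.57 and 9.95 at 4 weeks, a difference of 1.40 ± 0.49 that was not called. The fructose carrier Slc2a5 differed by 1.13 ± 0.71 and the fructokinase gene Khk by 0.32 ± 0.52, and neither was called. Ldhb, the heart-type lactate dehydrogenase and no list member, fell by 3.17 ± 0.46, from 9.09 and 10.68 to 6.56 and 6.86; the second 2-week array was the highest. Ldhb was called without the first 2-week array and lost the call without any of the other 3, with a difference of -2.38 without the second. Gluconeogenesis (12 genes) had no call and a median of -0.26: Pck1, its key enzyme, overlapped between the ages, at 13.31 and 12.62 and 13.43 and 12.56, while pyruvate carboxylase (Pc) stood at 11.13 and 10.94 and then 10.53 and 9.69. Glycogen metabolism (9 genes, median 0.23) had no call, and glycogen synthase Gys2 stood at 11.20 and 12.45 and then 9.90 and 9.99. The 4 genes of galactose metabolism, the pathway of milk sugar, were all below 0 with a median of -0.43, and none was called. Galt differed by -0.40 ± 0.33 and its arrays overlapped.

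Amino acid breakdown (35 genes) and the urea cycle (9 genes) held no call, with medians of 0.10 and -0.28; the latter was -0.78 without the first 2-week array and 0.08 without the second 4-week array. Tdo2, which opens the breakdown of tryptophan, stood at 7.68 and 9.45 at 2 weeks and 11.28 and 11.22 at 4 weeks (adjusted p = 0.11), and both 4-week arrays were above both 2-week arrays. Proline dehydrogenase (Prodh) stood at 8.86 and 9.13 and then 11.44 and 10.52 (adjusted p = 0.0914). Tat, the tyrosine aminotransferase whose activity appears after birth, differed by 0.29 ± 0.20. Sds, serine dehydratase, differed by -0.90 ± 0.63 with its 2-week arrays far apart at 8.62 and 10.84. In the urea cycle, argininosuccinate lyase (Asl) stood at 11.75 and 12.68 and then 11.37 and 10.44, and was not called.

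Genes of dividing cells lay almost all below 0, with few calls. Of 46 mitosis genes none was called, 44 had a difference below 0, and the median was -0.95, the lowest of all lists. Both 4-week arrays lay below both 2-week arrays in 35 of the 46, against 20.1% of all genes. An unadjusted p under 0.05 (limma) was reached by 30 of the 46, and by 1050 of all 14511 genes. Of 33 DNA replication genes none was called, 32 were below 0, and the median was -0.64. In 28 of the 33 both 4-week arrays lay below both 2-week arrays, against 20.1% of all genes. The G1 list (22 genes, median -0.33) held the only calls, 2 lower, against 0.152% of all genes. Ccne1, the cyclin of entry into DNA synthesis, fell by 1.69 ± 0.26, from 7.59 and 7.16 to 5.66 and 5.70. Cdc25a, the phosphatase that activates the kinases of that step, fell by 1.42 ± 0.22, from 8.30 and 8.15 to 6.86 and 6.76. Both lost the call when any 1 array was left out. Ccnd1, cyclin D1, stood at 9.69 and 9.74 and then 8.01 and 7.95 and narrowly missed the threshold (difference -1.73 ± 0.28, adjusted p = 0.0514). Myc differed by 0.51 ± 0.23 and was not called.

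Within the mitosis list, Cdc20, which activates the complex that ends mitosis, had the lowest p: it stood at 7.98 and 7.70 at 2 weeks and 6.47 and 6.71 at 4 weeks (difference -1.25 ± 0.23, adjusted p = 0.0861). Cdk1, the kinase that drives mitosis, stood at 7.23 and 6.82, 5.67 and 5.99 and 4.79 and 4.85 at 2, 4 and 12 weeks (difference -1.20 ± 0.24, adjusted p = 0.11). For Cdk1 and Cdc20 the 3 ages did not overlap and followed in order of age. Mcm10 and Mcm7, of the machinery that opens DNA for copying, stood at 8.70 and 8.37 and 9.34 and 8.67 at 2 weeks and at 7.07 and 6.51 and 8.09 and 7.44 at 4 weeks. The first 2-week array carried more of these RNAs. Genes of the mitosis list averaged 7.35 and 6.84 at 2 weeks, 6.16 and 6.34 at 4 weeks and 5.23 and 5.48 at 12 weeks. The median difference was -0.61 without the first 2-week array and -1.27 without the second, and for DNA replication it was -0.31 and -0.88. Ribosome biogenesis genes (20, none called) were all below 0 on the deposited scale (18 with the arrays shifted to a common 75th percentile), with a median of -0.44.

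The 250 bases upstream of 3 of these genes are shown because nearly all genes of the mitosis and replication lists lay below 0 and their promoters are known to carry shared elements. They come from the RefSeq annotation of GRCr8 and are written 5′ to 3′ on the gene's strand. They lie at chr20:19265043-19265292 (plus strand) for Cdk1, at chr5:137255800-137256049 (minus strand) for Cdc20 and at chr12:22163179-22163428 (minus strand) for Mcm7. In Cdk1 and Cdc20 capitals mark CCAAT (or ATTGG, its other strand), bound by NF-Y, and TTTGAA, the cell cycle homology region. In Mcm7 they mark CCAAT and GCGGGAA, an E2F element.
Cdk1: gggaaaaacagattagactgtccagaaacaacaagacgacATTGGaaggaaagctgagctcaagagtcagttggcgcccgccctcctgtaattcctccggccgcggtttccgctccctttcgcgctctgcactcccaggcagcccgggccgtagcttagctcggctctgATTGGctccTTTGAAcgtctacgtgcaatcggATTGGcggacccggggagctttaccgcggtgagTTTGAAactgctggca
Cdc20: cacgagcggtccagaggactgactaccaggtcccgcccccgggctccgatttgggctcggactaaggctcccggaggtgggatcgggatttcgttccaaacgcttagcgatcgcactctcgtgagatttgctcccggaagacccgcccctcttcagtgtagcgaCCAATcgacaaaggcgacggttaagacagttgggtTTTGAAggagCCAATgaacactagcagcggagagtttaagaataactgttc
Mcm7: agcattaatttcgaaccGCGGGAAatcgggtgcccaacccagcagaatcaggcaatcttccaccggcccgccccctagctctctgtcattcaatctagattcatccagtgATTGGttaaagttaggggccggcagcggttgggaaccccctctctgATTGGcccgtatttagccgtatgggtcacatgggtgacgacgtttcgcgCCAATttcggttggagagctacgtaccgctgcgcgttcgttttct
TTTGAA, on either strand in 250 bases before to 50 after the start, was held by 27 of 40 promoters of the mitosis list (67.5%) and by 2 of 32 of the DNA replication list (6.25%), against 18.3% of all 33469 promoters. GCGGGAA was held by 3 of 40 (7.5%) and 13 of 32 (40.6%), against 4.21%. CCAAT was held by 72.5% and 71.9%, against 37.5%. CCAAT and TTTGAA stood together in 22 of the 40 mitosis promoters (55.0%), against 7.41% of all, and the 3 motifs share no overlap in the sequences printed. Promoters were found for 39 of 46 and 30 of 33 genes. The lipogenesis list held CCAAT in 11 of 16 promoters (68.8%) and TTTGAA in 0 of 16. A match shows only that the letters are there.

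**Figure D4:**
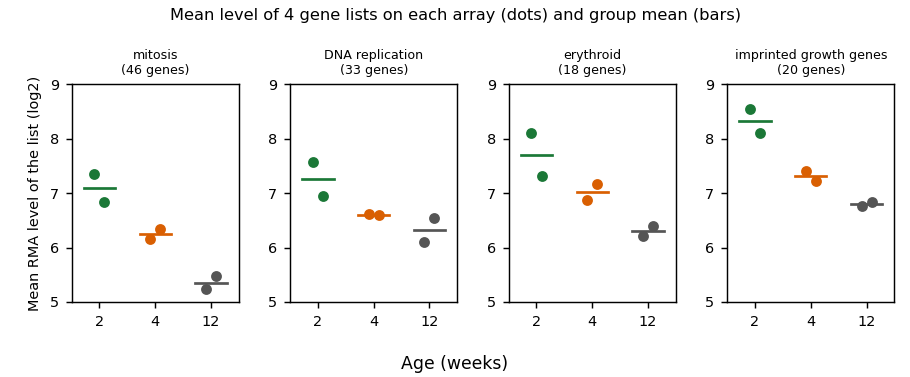
Mean log2 level of 4 gene lists (mitosis, DNA replication, erythroid markers, imprinted growth genes) on each array (dots) with the group mean (bars) at 2, 4 and 12 weeks, 2 arrays each, on a shared axis from 5 to 9. The 2-week dots lie above the 4-week dots in all 4 panels, and the mitosis means fall from 7.35 and 6.84 through 6.16 and 6.34 to 5.23 and 5.48.

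The cells that share the liver showed few calls. Of 18 erythroid markers, which mark blood formation that the liver still hosts after birth, none was called, 17 were below 0, and the median was -0.58. They averaged 8.10 and 7.31 at 2 weeks, 6.88 and 7.17 at 4 weeks and 6.22 and 6.40 at 12 weeks, and 1 array decides much of the difference: the median was -0.17 without the first 2-week array and -1.08 without the second, with 1 gene called lower in the latter. Alas2, the haem synthesis enzyme of red cell precursors, stood at 10.13 and 9.70 and then 8.81 and 9.13 and was not called. Tfrc, the transferrin receptor, stood at 11.53 and 11.61 and then 10.44 and 10.23. Rhag, a red cell membrane protein, stood at 7.25 and 5.21 and then 4.87 and 4.66, with the first 2-week array alone high and its 4-week levels under the background level. These markers moved with the mitosis and replication lists across the arrays, and their part in those results was not tested.

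Of 17 neutrophil and granulocyte markers, 1 rose, against 0.303% of all genes, and 13 were below 0, with a median of -0.44. The median was 0.07 without the first 2-week array and -0.98 without the second, so the list's direction turns on that array. The riser was Lcn2, lipocalin 2, which hepatocytes also secrete in inflammation; the other 3 members above 0 lay between 0.06 and 0.25. It stood at 5.74 and 7.29 at 2 weeks, 10.05 and 11.85 at 4 weeks and 6.72 and 6.62 at 12 weeks, a rise of 4.43 ± 0.62 (adjusted p = 0.024) that lost the call without the first 2-week or the second 4-week array. The 29 T and NK cell markers had a median of 0.25 with 24 above 0, none was called, and 8 were under the background level at both ages. The 17 macrophage markers had a median of 0.10 and no call, and the median was 0.53 without the first 4-week array and -0.08 without the second. Among 12 B and plasma cell markers (median 0.11, none called) 5 were under the background level at both ages. The antibody joining chain Jchain stood at 4.14 and 4.60 at 2 weeks, under the background level, and 5.85 and 7.73 at 4 weeks (adjusted p = 0.227). Stellate cell, endothelial, bile duct, megakaryocyte and mesothelial markers had medians of -0.28, -0.22, -0.08, -0.14 and -0.35, and pancreas markers 0.00, without a call; each of these except the endothelial median reached 0 or turned when 1 array was left out. Collagens and matrix genes (26, none called) had a median of -0.26, which was -0.66 without the first 4-week array and 0.19 without the second; the stellate cell median likewise turned, to 0.17, without the second. Oit3, a sinusoidal endothelial protein, stood at 10.56 and 10.11 and then 8.96 and 8.51 (adjusted p = 0.127).

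Immune genes of the tissue lay mostly above 0 without a call. All 20 antigen presentation genes had a difference above 0, with a median of 0.39, which was 0.24 without the first 2-week array. In 13 both 4-week arrays lay above both 2-week arrays, against 20.1% of all genes. Psmb8, an immunoproteasome subunit, stood at 7.21 and 7.21 at 2 weeks, 8.32 and 8.61 at 4 weeks and 9.38 and 9.43 at 12 weeks, and B2m, the light chain of MHC class I, at 12.23 and 12.28, 12.75 and 13.03 and 12.84 and 12.82. Of 26 interferon response genes 22 were above 0 with a median of 0.74; none was called. Mx1, an antiviral GTPase, stood at 5.15 and 5.15, 6.55 and 7.06 and 8.42 and 7.24, with its 2-week levels under the background level. The second 4-week array was the higher one in this list, with a mean level of 7.74 against 7.22, and the median was 0.50 without it and 0.93 without the first, with 1 gene called in the latter. Some called immune genes lay outside these lists; Cd14 and Il33 were named after their values were seen. Pigr, which carries IgA from blood into bile, rose by 2.71 ± 0.27, from 9.92 and 9.74 to 12.90 and 12.19, and lost the call only without the second 2-week array. Cd14, a receptor for bacterial lipopolysaccharide, rose by 1.41 ± 0.22, and the alarmin Il33 by 2.15 ± 0.26; both lost the call when any 1 array was left out.

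Acute-phase proteins (25 genes) had a median of 0.01, with 2 that rose and 1 that fell, against 0.303% and 0.152% of all genes. Beside Lcn2, Crp, C-reactive protein, rose by 1.53 ± 0.23, from 10.64 and 10.26 to 11.97 and 11.99. A2m, the alpha-2-macroglobulin that the fetal and the inflamed rat liver secrete, stood at 12.81 and 12.02 at 2 weeks, 10.67 and 10.30 at 4 weeks and 6.53 and 6.70 at 12 weeks and fell by 1.93 ± 0.31. Crp and A2m lost the call when any 1 array was left out. Orm1, alpha-1-acid glycoprotein, singled out after its values were seen, stood at 7.21 and 9.94 at 2 weeks and 12.21 and 12.68 at 4 weeks. Its difference of 3.87 ± 0.81 was among the largest that were not called (adjusted p = 0.132), with the 2-week arrays far apart. Complement and coagulation genes (31, none called) had a median of -0.06 (0.02 with the arrays shifted to a common 75th percentile); factor VII (F7) stood at 10.37 and 10.61 and then 9.33 and 9.27. In iron handling (21 genes, none called, median -0.17) Hamp, the iron hormone hepcidin, stood at 6.28 and 6.27 at 2 weeks, 8.07 and 10.42 at 4 weeks and 12.04 and 11.56 at 12 weeks. Its 4-week arrays were both above the 2-week arrays but far from each other, and it was not called (adjusted p = 0.132).

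The circadian clock list (16 genes, median -0.15) held 1 call, higher at 4 weeks, against 0.303% of all genes. Nr1d1, the repressor REV-ERB-alpha, whose level swings over the day, stood at 7.26 and 6.92 at 2 weeks, 10.33 and 10.09 at 4 weeks and 6.99 and 7.56 at 12 weeks and rose by 3.12 ± 0.35 (adjusted p = 0.00959). It kept the call without the first 2-week array and lost it without any of the other 3. The hour of death is not given, so age and time of day cannot be told apart for this gene. Among 27 liver transcription factors (median -0.03 on the deposited scale and above 0 under the other scalings) Foxa3, a forkhead factor, fell by 2.23 ± 0.29, from 9.43 and 9.41 to 7.38 and 7.0, and lost the call when any 1 array was left out. Hnf4a overlapped between the ages, with 3 arrays near 11.5 and the second 4-week array at 10.47. The 20 immediate-early genes (median 0.16), 26 stress proteins (median -0.15) and 28 respiratory chain genes (median -0.11) held no call. The stress median ran from -0.39 to 0.18 and the respiratory chain median from -0.44 to 0.23 when 1 array was left out.

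**Figure D5:**
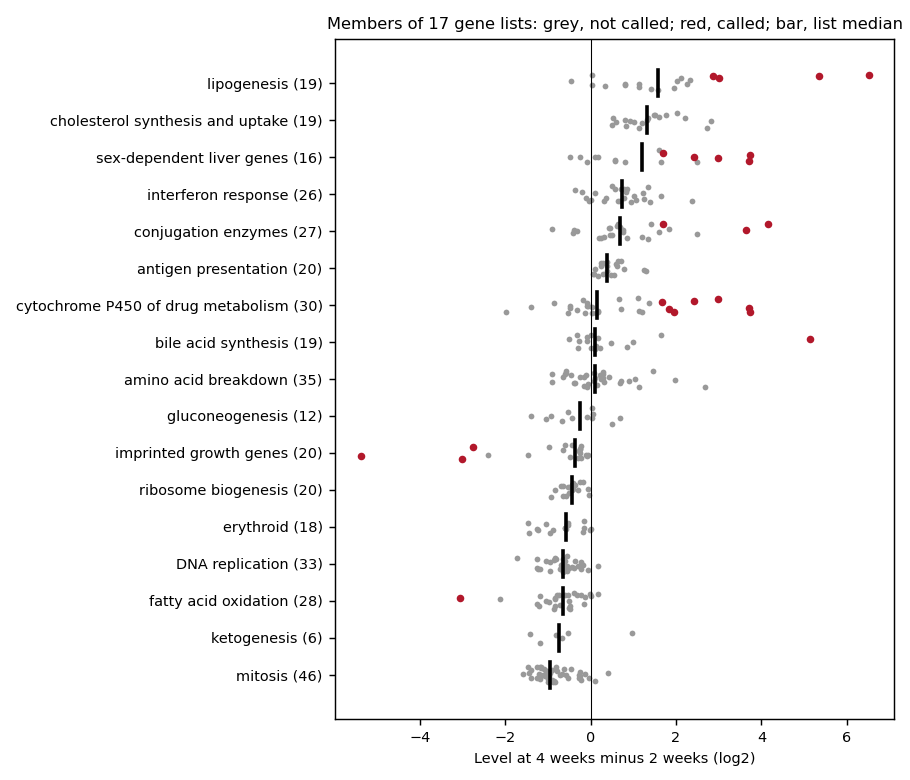
Log2 level at 4 weeks minus 2 weeks for the measured members of 17 gene lists (number of genes in brackets), each dot a gene, red where called, with a black bar at the list median and a line at 0. Lipogenesis has the highest median (1.58) and mitosis the lowest (-0.95); mitosis, DNA replication, erythroid and ribosome biogenesis genes lie mostly left of 0 without a red dot.

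The remaining called genes with large differences belong to no list. Slc41a2, a magnesium transporter, stood at 6.76 and 5.99 at 2 weeks, 11.08 and 10.64 at 4 weeks and 11.85 and 12.59 at 12 weeks and rose by 4.49 ± 0.35. Mettl7b, a methyltransferase, rose by 4.65 ± 0.53, from 5.56 and 6.04 to 9.63 and 11.27, and Wfdc21, a small secreted protein, by 3.42 ± 0.32, from 6.64 and 7.39 to 10.21 and 10.66. Nabp1, a single-stranded DNA-binding protein, rose by 3.13 ± 0.45. Tsx and the kinase anchor Akap5 rose by 3.27 ± 0.44 and 2.92 ± 0.45 from 2-week means under the background level. In the other direction, Qpct, the glutaminyl cyclase that caps peptides, stood at 9.77 and 9.63 at 2 weeks, 5.36 and 5.92 at 4 weeks and 4.56 and 4.67 at 12 weeks and fell by 4.06 ± 0.26 (adjusted p = 0.000851). Gfra1, a receptor for the growth factor GDNF, fell by 2.57 ± 0.25, from 9.55 and 9.48 to 7.17 and 6.72. Qsox1, which forms disulphide bonds, fell by 2.15 ± 0.23, and the neutral amino acid transporter Slc1a4 fell by 2.31 ± 0.32. The adhesion receptor Adgrg1, Dennd11, the tetraspanin Cd9 and Mfge8, which tags dying cells for uptake, fell by 2.23, 1.98, 1.82 and 1.74. In all of these genes the 4-week arrays lay apart from both 2-week arrays. Slc41a2, Wfdc21, Qpct and Gfra1 stayed called without any 1 array. Mettl7b lost the call without either 2-week array, Tsx without the second array of either age, Adgrg1 and Qsox1 under 3 of the 4 omissions, and Nabp1, Akap5, Slc1a4, Dennd11, Cd9 and Mfge8 under all 4.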

How the data were processed

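Log2 expression levels of whole liver were read from 8 arrays, 2 per group. Per the submitters' processing notes, the authors computed the deposited log2 values by RMA in Affymetrix Expression Console (version not given in the sources used here). RMA, robust multi-array averaging, subtracts background, makes the arrays' distributions alike and summarises probes, so values have no read depth, small differences at low levels are compressed, and the number of arrays limits the precision.

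Of 29214 probe sets, 15316 carried 1 gene symbol in the platform annotation (317 several, 13581 none), and 15285 of these matched RefSeq. For each of 14511 genes the probe set with the highest mean over the 8 arrays was kept (528 genes had several). The contrast of 4 minus 2 weeks was fitted with limma 3.58.1 in R 4.3.3 (lmFit and eBayes, 4 groups, 8 arrays), with Benjamini-Hochberg adjustment over all genes and a threshold of 0.05; all adjusted p-values are from that fit unless an omitted array is named. Differences are log2 ± SE, n = 2 arrays a group. The fit was also run on simulated data with independent errors of equal spread on all arrays, drawn from its own variance model. That run does not show how the fit performs on these arrays. Genes were named by rule: the 25 largest calls in each direction, called members of each list, the 3 lowest p in lists without a call and some set names; others are marked in the text. The members, 35 gene lists and 13 marker lists were chosen with earlier results of these data known. Alternatives covered the arrays fitted, scaling, filters, probe set choice, the variance model and a replicate block. Equal replicate numbers were not taken to pair arrays. Promoters came from RefSeq's GRCr8 table.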

Additional observations from a re-analysis of the deposited data

How the results depend on the processing

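The count of 66 called genes (limma, adjusted p under 0.05) moved by more than 1.5 times under some settings. It was 110 without the 12-week arrays, with all 66 among them, 116 with array weights, 140 with the level of receptor genes as a covariate and 31 at an adjusted p under 0.01. Leaving out 1 of the 4 arrays gave 26 (second 4-week array) to 46 (first 2-week array) genes. A replicate block gave 129 genes, 66 of them shared, and on the 4 arrays alone, a setting added after seeing the data, 238. The correlation across genes of replicate differences was 0.181 between 2 and 4 weeks, 0.023 between 2 and 12, 0.337 between 4 and 12, and 0.239, 0.353 and 0.568 between the operated livers and 2, 4 and 12 weeks. The labels name no shared source for a number, so the block was not taken as a pairing; the values do not exclude one. Median centring gave 86, a common 75th percentile 87, quantile normalization 77 and the 4 arrays alone 56, all within 1.5 times. Similar counts were not always the same genes: of the 66, these settings called 65, 64, 60 and 45 in that order. The median of all genes shifted by at most 0.08 under the scalings. Of 118 genes named, 6 changed sign somewhere, all uncalled. Without the second 2-week array Acta1 (0.02), Alb (-0.01), Sds (0.21), Cyp3a9 (0.36) and Pck1 (-0.32) did so. Cyp3a9 (0.49) and Pck1 (-0.40) did so without the first 4-week array, Hnf4a (0.05) without the second, and Pck1 (-0.02) with quantile normalization. Leaving out 1 array gave ranges of -3.83 to 0.02 for Acta1, -0.69 to 0.49 for Cyp3a9, -1.06 to 0.05 for Hnf4a, -0.40 to 0.47 for Pck1 and -2.01 to 0.21 for Sds. The cause was not tested. List medians moved by more than the spread between arrays in 55 of 288 checks. With 2 arrays a group, small differences could not be resolved: no difference under 1.41 was called.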

Other observations

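Probe sets without a gene name also differed between the ages. In a fit over all probe sets, a setting added after seeing the data, 12 of 13581 unnamed probe sets were called (9 higher, 3 lower at 4 weeks, 0.0884%), against 44 of 15316 with 1 symbol (0.287%) and 5 of 317 with several (1.58%). The unnamed probe set 10730013 stood at 6.66 and 6.86 on the 2-week arrays and at 12.77 and 13.03 on the 4-week arrays, a difference of 6.14 ± 0.21 (limma, adjusted p = 0.0002085). Probe set 10715242 stood at 5.93 and 5.92 and then at 10.65 and 10.90, a difference of 4.85 ± 0.22 (limma, adjusted p = 0.0007294). For both, all 4-week values lay far above all 2-week values, and their genes were not identified here.

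Olr59, named for the odorant receptors and singled out after its values were seen, was the only called gene among the 1281 receptor genes that served as background. It stood at 4.80 and 4.73 at 2 weeks, under the background level, 6.74 and 7.12 at 4 weeks and 6.62 and 6.73 at 12 weeks and rose by 2.17 ± 0.22 (limma, adjusted p = 0.0057), a size that is uncertain for that reason. It lost the call without the second 2-week or the second 4-week array.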
